A study of Mus musculus with 6 samples.

Results

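The 10 genes described here are the natriuretic peptide genes Nppa and Nppb, the peptide processing enzymes Corin and Furin, the natriuretic peptide receptors Npr1, Npr2 and Npr3, the cardiac myosin heavy chains Myh6 and Myh7, and the skeletal alpha actin Acta1. They were taken by name from a table of 30914 genes, and each name matched 1 row. The table gives the FPKM of every gene in 6 mouse hearts, that is, fragments scaled to transcript length and to the mapped total of the library. The hearts came from male wild type C57BL/6J mice that were 8 weeks old at the start. All 6 mice received angiotensin II (Ang II), the effector peptide of the renin-angiotensin system, at 1 μg/kg/min from an osmotic pump for 4 weeks. In the Ang II group (3 mice) nothing was added, and in the Ang II + Tec group (3 mice) tectochrysin (Tec), a plant flavonoid, was injected daily into the peritoneum at 5 mg/kg during the last 2 weeks. No untreated heart is among these libraries, so the comparison covers the effect of Tec on top of Ang II and not that of Ang II itself. RNA came from heart tissue with no cell type selected, and the sources do not say which chambers each sample held. Fewer cells of a type and less RNA per cell cannot be told apart in such samples.

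The fetal gene program is the set of genes that the embryonic heart uses and that the adult ventricle takes up again under load. It includes Nppa and Nppb, which encode the precursors of atrial (ANP) and B-type (BNP) natriuretic peptide, hormones that promote salt excretion and widen vessels. It also includes Myh7, the slow beta myosin heavy chain, and Acta1, whereas Myh6, the fast alpha chain, dominates in the adult mouse ventricle. Healthy atria hold far more Nppa than healthy ventricles. Corin is the membrane protease that cleaves the ANP precursor, and furin cleaves the BNP precursor and activates many other proteins. Npr1 is the guanylyl cyclase receptor of ANP and BNP, Npr2 is that of C-type natriuretic peptide, and Npr3 removes the peptides from the circulation.

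The libraries held 20998 to 22385 genes above 0, and their FPKM summed to between 516699 and 629989. Transcripts of the mitochondrial genome took 40.1% to 52.5% of these sums. FPKM keep no total of reads, so the depth behind each value is unknown, and errors are those between mice. The 13089 genes with at least 0.5 FPKM in at least 3 libraries, including all 10 genes described here, were tested with limma on log2(FPKM + 1), a scale that understates the change of low genes. A gene was called where its Benjamini-Hochberg adjusted p was under 0.05 and its log2 fold change at least 1 in either direction, which held for 0.160% of the tested genes. Of all tested genes, 80.0% were lower with Tec on this scale and their median log2 fold change was -0.17, against 49.6% and 0.0020 after a rescaling that brings the median ratio between libraries to a common level (the median of ratios). Ang II replicate 3 stood apart from the other hearts of its group. With all 6 libraries 21 genes were called, without it 557, and without any 1 of the other 5 between 2 and 7.

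Across both groups the order of the mean FPKM was the same: Nppa, Myh6, Nppb, Acta1, Myh7, Corin, Npr2, Furin, Npr1 and Npr3. The peptide precursors were therefore among the most abundant transcripts of these hearts, with Nppa at place 25 and Nppb at place 60 among all genes by mean FPKM, while their receptors stood at the low end. Neighbours in this order often could not be told apart from their ranges. In the Ang II group the ranges were separate between Myh7 and Corin, between Corin and Npr2 and between Furin and Npr1. In the Ang II + Tec group they were separate between Myh6 and Nppb, Acta1 and Myh7, Myh7 and Corin, Corin and Npr2, and Npr2 and Furin.

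**Figure D1:**
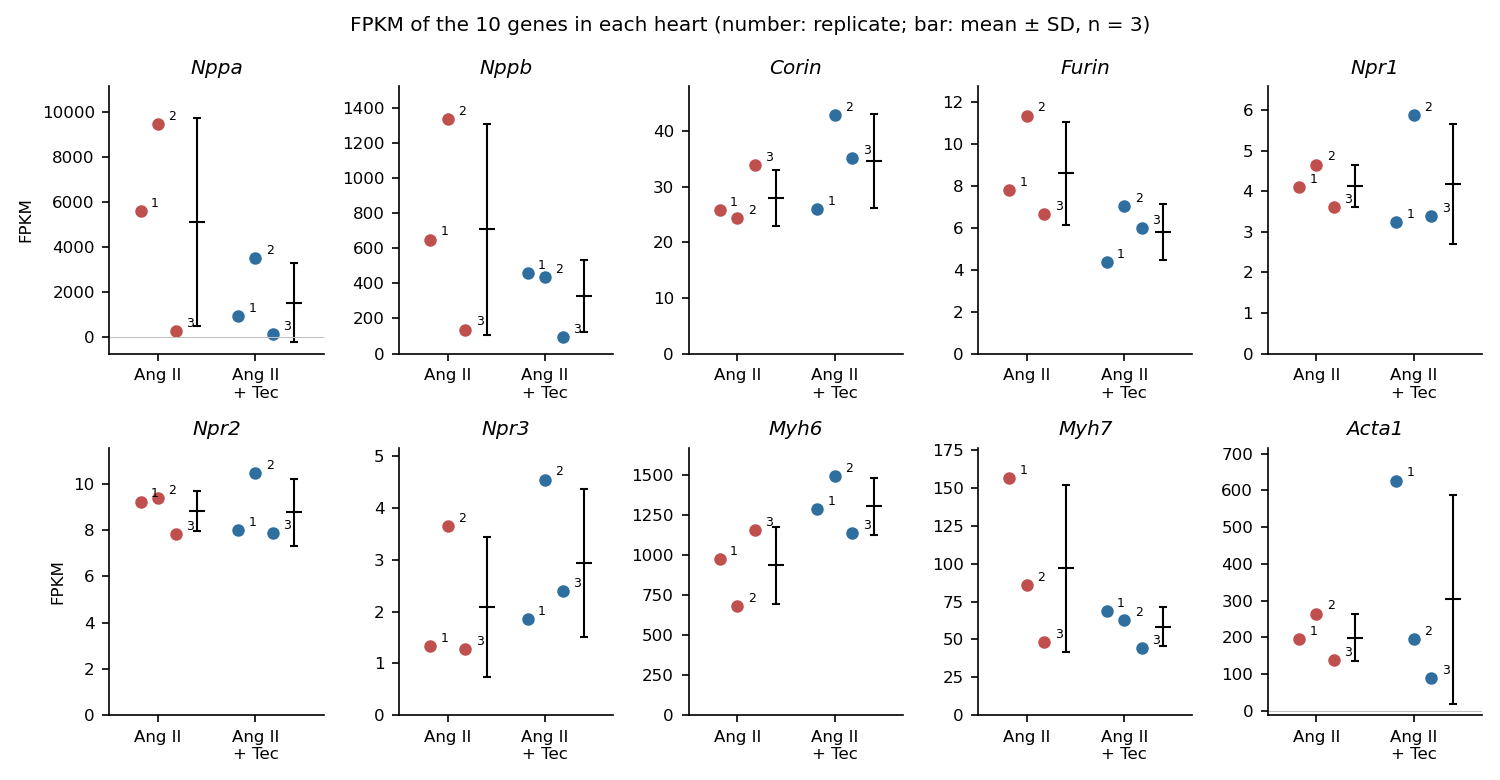
FPKM of the 10 genes in each of the 6 hearts, with points numbered by replicate and a bar for the mean ± SD of each group (n = 3); each panel has its own linear axis. The groups overlap in all 10 genes, and Nppa spans from 125 to 9456 FPKM.

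Among the 10 genes 0 were called, 6 had a lower and 4 a higher mean of log2(FPKM + 1) with Tec, and the groups overlapped in every one (0 of 10 without overlap, where 18.9% of all tested genes were lower and 2.90% higher without overlap). At an unadjusted p under 0.05, limma had 1 of the 10 genes higher with Tec (Myh6) and 0 lower, beside 2.09% higher and 16.5% lower among all tested genes. Their median log2 fold change was -0.015, and after the median of ratios 4 were lower and 6 higher. Without Ang II replicate 3, Nppa, Nppb, Furin and Myh7 were lower and Myh6 higher at an unadjusted p under 0.05 (limma), as were 5149 and 566 of the 13089 tested genes. Nppa, Nppb, Myh7 and Acta1 shared a feature that the group labels do not give: Ang II + Tec replicate 3 was the lowest and Ang II replicate 3 the second lowest library in each of the 4 genes. It was not particular to them, since Xirp2, Tbx20, Enah and Hba-a1 had the same 2 lowest hearts in the same order. The share of all tested genes with this order was not counted. In contrast, Ang II + Tec replicate 2 was the highest library for Corin, Npr1, Npr2, Npr3 and Myh6.

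**Figure D2:**
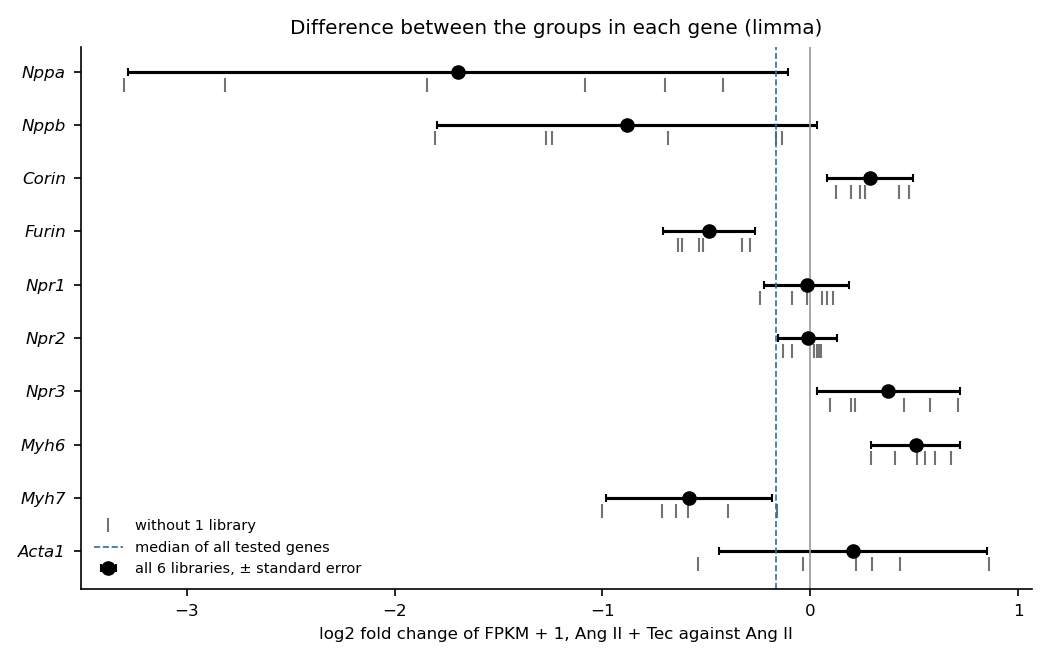
Log2 fold change of FPKM + 1 of each gene, Ang II + Tec against Ang II, from limma with all 6 libraries (points, with bars of 1 standard error) and without each library in turn (ticks). The dashed line is the median of all 13089 tested genes, -0.17, and the ticks of Nppa run from -3.30 to -0.42.

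The upstream sequences are shown of the 4 of these 10 genes that were lowest in the same 2 hearts. They carry letters that match binding motifs of known cardiac regulators. So does Myh6, which had another order of hearts and is not shown. The sequences shown are the 250 bases before the start of each gene in RefSeq on GRCm38.p6. They are read 5′ to 3′ on the gene's strand, and capitals mark the matches. All 10 genes had an entry in the RefSeq table, with 12 starts between them.

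Nppa (chr4:148000472-148000721, plus strand): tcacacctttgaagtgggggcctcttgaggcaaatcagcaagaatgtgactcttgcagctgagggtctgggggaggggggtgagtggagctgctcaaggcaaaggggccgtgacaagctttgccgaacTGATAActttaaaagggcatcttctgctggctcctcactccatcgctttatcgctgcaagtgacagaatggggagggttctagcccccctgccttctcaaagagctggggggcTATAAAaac

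Nppb (chr4:147985650-147985899, plus strand): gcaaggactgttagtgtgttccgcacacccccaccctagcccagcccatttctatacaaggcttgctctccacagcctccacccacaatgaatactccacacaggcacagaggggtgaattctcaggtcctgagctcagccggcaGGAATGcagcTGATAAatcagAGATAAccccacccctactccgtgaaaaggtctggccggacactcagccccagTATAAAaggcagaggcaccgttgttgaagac

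Myh7 (chr14:54994627-54994876, minus strand): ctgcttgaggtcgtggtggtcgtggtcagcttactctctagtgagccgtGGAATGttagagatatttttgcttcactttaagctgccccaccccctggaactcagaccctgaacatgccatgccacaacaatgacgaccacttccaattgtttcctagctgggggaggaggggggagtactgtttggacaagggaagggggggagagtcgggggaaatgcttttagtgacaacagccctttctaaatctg

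Acta1 (chr8:123894776-123895025, minus strand): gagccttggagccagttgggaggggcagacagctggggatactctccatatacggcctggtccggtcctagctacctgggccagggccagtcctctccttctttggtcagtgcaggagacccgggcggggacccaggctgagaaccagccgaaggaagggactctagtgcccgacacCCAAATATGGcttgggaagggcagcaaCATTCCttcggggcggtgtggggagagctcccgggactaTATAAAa

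The motifs searched on both strands were the GATA motif (GATA with A or T before it and A or G after it), M-CAT (CATTCC), which TEAD factors bind, the TATA box (TATAAA) and the CArG box of serum response factor. Among all 32851 promoter windows of this length in the RefSeq table, 26.5% held the GATA motif, 12.6% M-CAT, 12.4% the TATA box and 1.47% the CArG box. Counting -1 as the base next to the start, Nppa held a GATA match at -122 and a TATA match at -9. Nppb held GATA matches at -95 and -84, an M-CAT match on the opposite strand at -105 and a TATA match at -31. The model of Nppb in the deposited table begins inside the window shown, ahead of the RefSeq start. Acta1 held M-CAT at -46, TATA at -7 and a CArG box at -73, a palindrome that matches on both strands. The Myh7 start shown held an M-CAT match on the opposite strand at -201, and its second RefSeq start held none of the 4. Myh6 held a GATA match at -235 and an M-CAT match at -206, Furin a TATA match at 1 of its 2 starts, and Corin, Npr1, Npr2 and Npr3 none. Matches of different motifs did not share bases. These are matches of letters only, and binding was not measured.

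The question for Nppa and Nppb was whether hearts that received Tec differed from those with Ang II alone. Nppa (ENSMUSG00000041616, GRCm38 chr4:148000722-148002079, plus strand) had 5568, 9456 and 256 FPKM in Ang II replicates 1, 2 and 3, and 906, 3489 and 125 FPKM in Ang II + Tec replicates 1, 2 and 3. Each group thus held 1 heart far below its other hearts, and Ang II replicate 3 lay below both Tec hearts 1 and 2. The means were 5093 ± 4619 (SD, n = 3) and 1507 ± 1760 FPKM (SD, n = 3). The log2 fold change was -1.69 (standard error 1.59, limma with Benjamini-Hochberg adjusted p = 0.532), within the spread between mice. Leaving out Ang II replicate 3 gave -3.30, and leaving out Ang II + Tec replicate 3 gave -0.42. The highest library was 75.7-fold above the lowest, and the within-group SD of log2(FPKM + 1) was 2.62, the seventh largest of the 13089 tested genes, whose median SD was 0.17.

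Nppb (ENSMUSG00000029019, chr4:147985788-147987205, plus strand) lies 13516 bases upstream of Nppa on the same strand. Its FPKM were 650.2, 1337 and 137 in the Ang II hearts and 458, 438 and 93.7 in the Ang II + Tec hearts. Ang II replicates 1 and 2 were above every Tec heart and Ang II replicate 3 was below 2 of the 3. The means were 708 ± 602 and 330.1 ± 205 FPKM (SD, n = 3 each), and the log2 fold change was -0.88 (standard error 0.91, limma adjusted p = 0.567), which became -1.80 when Ang II replicate 3 was left out and -0.13 when Ang II + Tec replicate 3 was. Nppb varied less between hearts than Nppa, 14.3-fold from lowest to highest library. Both genes kept a lower mean with Tec after the median of ratios, at -1.46 and -0.65.

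Nppa and Nppb did not keep a constant proportion. Their ratio was 8.56, 7.07 and 1.87 in the Ang II hearts and 1.98, 7.96 and 1.33 in the Ang II + Tec hearts, so 2 hearts of the first group and 1 of the second held 7 to 9 times as much Nppa as Nppb and the others under 2 times. The groups overlapped (difference of mean log2 ratio -0.81, from -1.58 to -0.29 without 1 library, two-sided exact permutation test p = 0.5). In this test 3 hearts against 3 cannot give a p below 0.1, and over the 11 ratios tested among these genes the Benjamini-Hochberg adjusted p ran from 0.611 to 0.700.

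The 3 hearts with the high Nppa to Nppb ratio were also those with high sums of atrial markers. Myl7, the atrial regulatory light chain of myosin, had 419, 332 and 0 FPKM in the Ang II hearts and 0, 1040 and 1.58 FPKM in the Ang II + Tec hearts. The summed FPKM of 8 atrial markers was 771, 957 and 19.1 with Ang II and 14.1, 1816 and 25.0 with Ang II + Tec, and 4 of the 8 were listed at 0 in at least 1 heart. Of the 7 that were tested, limma called 0 and had 0 at an unadjusted p under 0.05. All 7 were lower in mean log2 (median -1.26), as were 80.0% of all tested genes. Their mean FPKM gave no common direction. It was higher with Tec for Myl7 (347 against 250), Sln (85.1 against 67.3), Mybphl, Kcnj3 and Stard10, and lower for Myl4 and Dkk3. Without 1 library the log2 fold change of Myl7 ran from -5.01 to -0.0028. In contrast to Myl7, ventricular markers were present in every heart, with a summed FPKM of 4203 to 5889 for 8 genes. Among the 3 hearts with atrial sums under 26 FPKM, Nppa was still 256, 906 and 125 FPKM. The ratio of Nppa to the atrial sum ran from 1.92 in Ang II + Tec replicate 2 to 64.1 in Ang II + Tec replicate 1, a 33.4-fold range. The part of atrial tissue in the Nppa values was not tested.

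For Nppb the closest profiles were those of globin genes. With each gene centred on its own mean over the 6 hearts, the root mean square difference in log2(FPKM + 1) from Nppb was 0.44 for Hbb-bt, 0.45 for Hbb-bs and 0.47 for Hba-a2, the 3 smallest of all tested genes. Against the same measure Nppa stood at place 2438, with 1.12. The summed FPKM of 5 erythroid genes was 648, 1018 and 248 in the Ang II hearts and 526, 376 and 147 in the Ang II + Tec hearts, which is the same order of the 6 libraries as for Nppb. The quotient of Nppb and this sum stayed between 0.551 and 1.31. This likeness over 6 libraries is a description, and the share of blood in the tissue was not tested as a source of it.

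**Figure D3:**
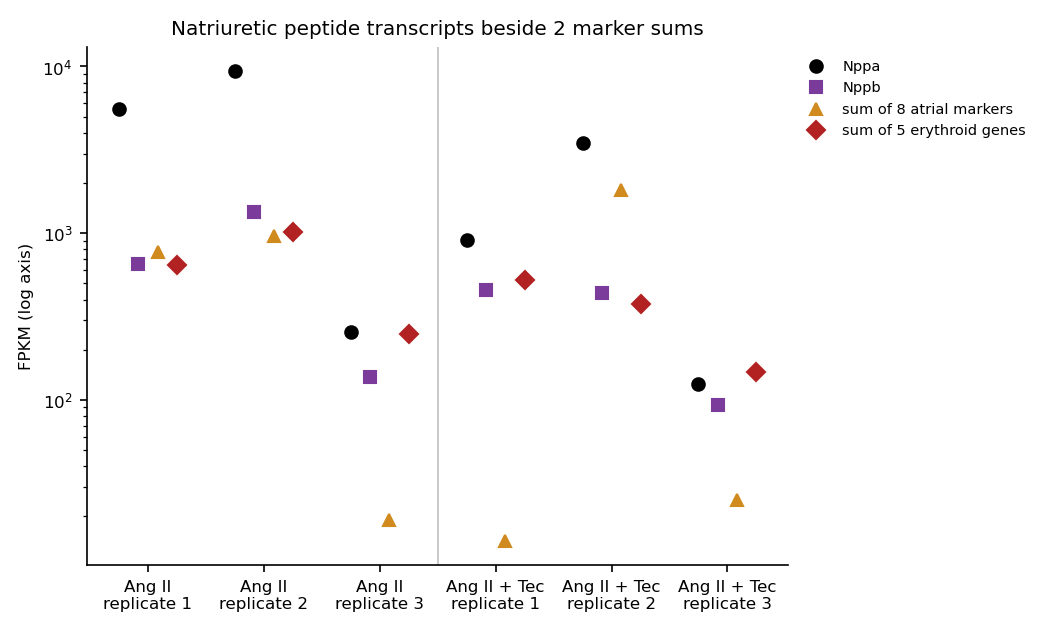
FPKM of Nppa and Nppb and the summed FPKM of 8 atrial and 5 erythroid genes in each heart, on a log axis. Nppb and the erythroid sum stand in the same order in the 6 hearts, while the atrial sum is between 14.1 and 25.0 in 3 hearts and between 771 and 1816 in the other 3.

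The 3 closest profiles to Nppa were Gm13054 (0.52), the matricellular gene Ccn2 (1.06) and Nppb itself (1.12). Gm13054 (ENSMUSG00000086806, chr4:148001091-148004014) is annotated on the strand opposite to Nppa, and 532 of its 820 exonic bases lie within Nppa exons. Its FPKM were 43.7, 94.1 and 0.980 with Ang II and 3.51, 42.0 and 0.930 with Ang II + Tec, which is 0.383% to 1.20% of the Nppa value in the same heart. Strand-specific counting is not stated for these libraries, so reads of the 2 genes cannot be told apart. Ccn2, at 155, 457 and 17.9 FPKM and 48.4, 134 and 34.2 FPKM, had its lowest value in Ang II replicate 3.

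The processing enzymes varied far less than the peptides. Corin (ENSMUSG00000005220, chr5:72300025-72504473, minus strand) had 25.8, 24.3 and 33.8 FPKM with Ang II and 26.0, 42.9 and 35.1 FPKM with Ang II + Tec. Ang II replicates 1 and 2, the hearts with the most Nppa, had the least Corin. The log2 fold change was 0.29 (standard error 0.21, limma adjusted p = 0.433), and it was 0.12 to 0.47 without 1 library, lowest when Ang II + Tec replicate 2 was left out. Furin (ENSMUSG00000030530, chr7:80388585-80403322, minus strand) had 7.78, 11.4 and 6.64 FPKM with Ang II and 4.37, 7.02 and 5.99 FPKM with Ang II + Tec. Only Ang II + Tec replicate 2 reached into the range of the Ang II group, above its replicate 3. Its means were 8.59 ± 2.46 and 5.79 ± 1.34 FPKM (SD, n = 3 each), and the log2 fold change of -0.49 (standard error 0.22) had an unadjusted p of 0.0615 and an adjusted p of 0.282 (limma). Without 1 library it was -0.64 to -0.29, nearest 0 when Ang II replicate 2 was left out.

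Among the receptors, Npr1 and Npr2 had nearly equal group means. Npr1 (ENSMUSG00000027931, chr3:90450591-90465866, minus strand) had 4.11, 4.66 and 3.62 FPKM with Ang II and 3.25, 5.89 and 3.40 FPKM with Ang II + Tec, with -0.018 for the log2 fold change (standard error 0.20, limma adjusted p = 0.962). Npr2 (ENSMUSG00000028469, chr4:43631935-43651244, plus strand) had 9.24, 9.40 and 7.83 FPKM with Ang II and 8.00, 10.5 and 7.88 FPKM with Ang II + Tec, with -0.013 for the log2 fold change (standard error 0.14, limma adjusted p = 0.961). The sign of both was positive after the median of ratios, at 0.17 and 0.20, so no direction is given for either. Npr3 (ENSMUSG00000022206, chr15:11839896-11907287, minus strand), the clearance receptor, had 1.34, 3.65 and 1.27 FPKM with Ang II and 1.85, 4.55 and 2.40 FPKM with Ang II + Tec. In each group replicate 2 stood above the other hearts, and the log2 fold change was 0.37 (standard error 0.34, limma adjusted p = 0.524). It was 0.096 when Ang II + Tec replicate 2 was left out and 0.71 when Ang II replicate 2 was. Endocardial markers label cells that line the chambers and express Npr3. Their summed FPKM was also highest in replicate 2 of each group, at 33.0, 62.9 and 19.1 for 6 genes with Ang II and 16.4, 53.0 and 32.6 with Ang II + Tec. Single markers did not all follow the sum. With Ang II, Nfatc1 was highest in replicate 1 (2.19 against 2.02 FPKM in replicate 2). With Ang II + Tec, Vwf was highest in replicate 3 (2.54 against 2.36 FPKM in replicate 2). Of these 6 markers 0 were called or had an unadjusted p under 0.05 (limma, median log2 fold change -0.16), and their part in the Npr3 values was not tested.

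Set against their processing enzymes and receptors, the peptides spanned wide ranges between hearts of 1 group. The FPKM ratio of Nppa to Corin was 216, 389 and 7.56 with Ang II and 34.9, 81.4 and 3.56 with Ang II + Tec (difference of mean log2 -1.99, exact permutation p = 0.4). Nppb to Corin was 25.2, 55.1 and 4.04 against 17.6, 10.2 and 2.67 (-1.18, exact permutation p = 0.4). In both, Ang II replicates 1 and 2 exceeded the other 4 hearts, and the 2 lowest values were those of replicate 3 in each group.

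Nppb to Furin, the pair of the BNP precursor and its protease, was 83.6, 118 and 20.6 with Ang II and 105, 62.4 and 15.6 with Ang II + Tec (-0.33, exact permutation p = 0.6). Its direction rested on single hearts, since it was 0.17 when Ang II replicate 2 was left out and 0.46 when Ang II + Tec replicate 3 was. Against the receptor Npr1, Nppa stood at 1355, 2029 and 70.6 with Ang II and at 279, 592 and 36.7 with Ang II + Tec (-1.67, exact permutation p = 0.5). Nppb to Npr1 was 158, 287 and 37.7 against 141, 74.4 and 27.6 (-0.86, exact permutation p = 0.4).

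Against the clearance receptor Npr3 the differences were of the same sign. Nppa to Npr3 was 4155, 2591 and 201 with Ang II and 490, 767 and 52.0 with Ang II + Tec (-2.26, exact permutation p = 0.3). Nppb to Npr3 was 485, 366 and 108 against 248, 96.3 and 39.0 (-1.45, exact permutation p = 0.2). The 2 receptors of the peptides had ratios of Npr3 to Npr1 of 0.326, 0.783 and 0.351 with Ang II and 0.569, 0.772 and 0.706 with Ang II + Tec (0.60, exact permutation p = 0.4). The groups overlapped in every one of the 11 ratios. Leaving out single hearts moved the following 7 by more than 1.5 times. Without 1 library Nppa to Corin ran from -3.74 to -0.69 and Nppb to Corin from -2.25 to -0.36, Nppa to Npr1 from -3.18 to -0.51 and Nppb to Npr1 from -1.69 to -0.22. Nppa to Npr3 ran from -3.61 to -1.08, Nppb to Npr3 from -2.12 to -0.79 and Npr3 to Npr1 from 0.37 to 1.001. For Nppa to Corin, Npr1 and Npr3 and for Nppb to Npr1, the value farthest from 0 came without Ang II replicate 3 and the value nearest 0 without Ang II + Tec replicate 3. For Nppb to Corin these were Ang II replicates 3 and 2, for Nppb to Npr3 Ang II + Tec replicates 1 and 3, and for Npr3 to Npr1 Ang II replicates 2 and 1.

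Turning to the contractile genes, Myh6 was the only one of the 10 with an unadjusted p under 0.05. Myh6 (ENSMUSG00000040752, chr14:54941921-54966641, minus strand) had 971, 678 and 1153 FPKM with Ang II and 1285, 1491 and 1137 FPKM with Ang II + Tec. The lowest Tec heart fell just below Ang II replicate 3, and the other Tec hearts were above all of the Ang II group. The means were 934 ± 239.5 and 1304 ± 178 FPKM (SD, n = 3 each), and the log2 fold change was 0.51 (standard error 0.22) with an unadjusted p of 0.0497 and an adjusted p of 0.268 (limma). The value was 0.29 to 0.67 without 1 library and 0.74 after the median of ratios. After quantile normalization it was 0.27 with an unadjusted p of 0.318, and with no filter on low FPKM the unadjusted p was 0.0718 (limma).

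Myh7 (ENSMUSG00000053093, chr14:54970684-54994626, minus strand) lies 4042 bases upstream of Myh6. It had 156, 86.1 and 48.2 FPKM with Ang II and 68.7, 62.6 and 44.0 FPKM with Ang II + Tec. Ang II replicates 1 and 2 exceeded every Tec heart, while Ang II replicate 3 was below 2 of them. The means were 96.9 ± 54.9 and 58.4 ± 12.9 FPKM (SD, n = 3 each), and the log2 fold change was -0.59 (standard error 0.40, limma adjusted p = 0.411). Leaving out Ang II replicate 3 gave -1.002 with an adjusted p of 0.0333 (limma), so that Myh7 just passed the fold change threshold and was called. It was then 1 of 557 genes called among the 13089 tested. Leaving out Ang II replicate 1 gave -0.16.

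The ratio of Myh7 to Myh6, the usual index of the shift towards the fetal myosin, was 0.161, 0.127 and 0.0418 with Ang II and 0.0535, 0.0420 and 0.0387 with Ang II + Tec. Ang II replicates 1 and 2 thus stood apart from a close group formed by Ang II replicate 3 and the 3 Tec hearts. The means were 0.110 ± 0.0614 and 0.0447 ± 0.00775 (SD, n = 3 each), with a difference in mean log2 ratio of -1.10 (two-sided exact permutation p = 0.3, adjusted p = 0.611). Since both genes are read in the same library, this ratio does not depend on how the library was scaled. Without 1 library the difference ran from -1.69 to -0.72, and adding 1 FPKM to both genes gave -1.09. Expressed as a share, Myh7 made up 13.9%, 11.3% and 4.01% of the summed Myh6 and Myh7 FPKM with Ang II and 5.07%, 4.03% and 3.73% with Ang II + Tec (exact permutation p = 0.3). The sum of both was 1031 ± 234 and 1363 ± 186 FPKM (SD, n = 3 each; exact permutation p = 0.2). The transcripts of the 2 genes share stretches of identical sequence, with 15.7% of the 50-base windows of Myh7 found in Myh6, so reads may have been divided between them.

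**Figure D4:**
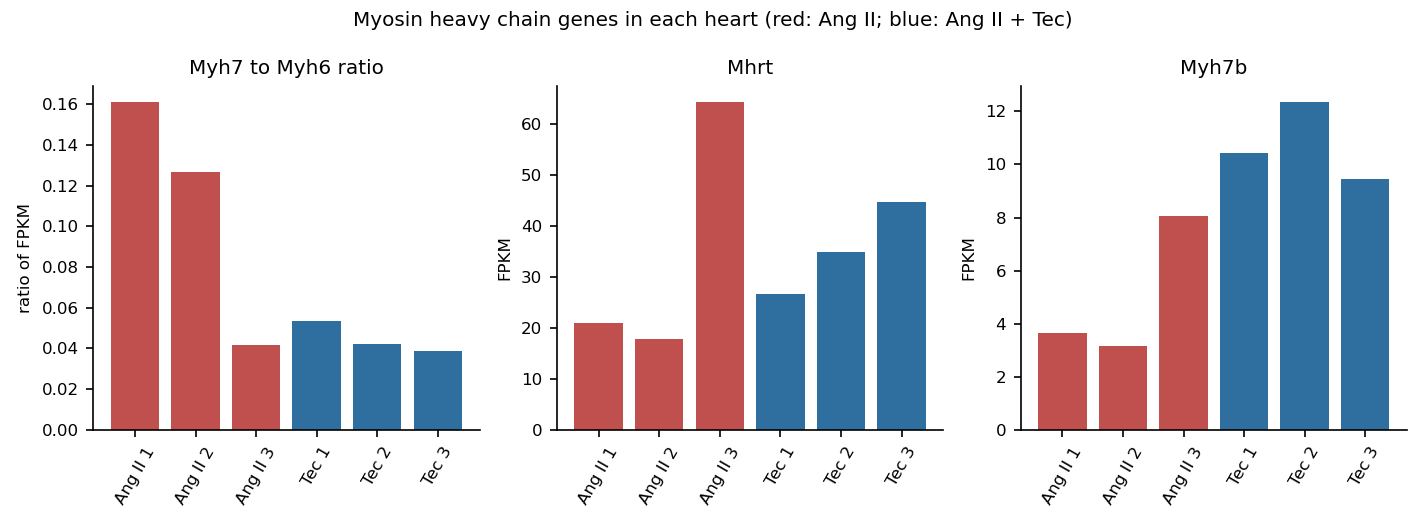
Ratio of Myh7 to Myh6 and FPKM of Mhrt and Myh7b in each heart, as bars from 0 (Tec in the axis labels stands for Ang II + Tec). The ratio is 0.127 or more in Ang II replicates 1 and 2 and between 0.0387 and 0.0535 in the other 4 hearts.

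Genes that overlap or resemble the myosins were looked at beside them. Mhrt (ENSMUSG00000097652), a cardiac noncoding RNA on the strand opposite to Myh7, had 21.1, 17.9 and 64.3 FPKM with Ang II and 26.6, 35.0 and 44.8 FPKM with Ang II + Tec. It was lowest in the same 2 hearts where the Myh7 to Myh6 ratio was highest, but the groups overlapped (log2 fold change 0.25, standard error 0.46, limma adjusted p = 0.753). Of its 1214 exonic bases 484 lie in Myh7 exons, where the strand of a read cannot be told. Myh7b, a further myosin heavy chain, had 3.66, 3.15 and 8.07 FPKM with Ang II and 10.4, 12.3 and 9.45 FPKM with Ang II + Tec. The groups did not overlap, and its log2 fold change of 1.06 (standard error 0.29) had an unadjusted p of 0.00733 and an adjusted p of 0.203 (limma), so it was not called.

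Acta1 (ENSMUSG00000031972, chr8:123891769-123894751, minus strand), which encodes the skeletal muscle actin of the fetal heart, did not follow the peptides in its group means. It had 196, 265 and 137 FPKM with Ang II and 627, 195 and 89.2 FPKM with Ang II + Tec, and Ang II + Tec replicate 1 alone was above all other hearts. The log2 fold change was 0.20 (standard error 0.64, limma adjusted p = 0.860), and it became -0.54 when Ang II + Tec replicate 1 was left out and -0.037 when Ang II replicate 3 was, so its direction rested on single hearts. Relative to the cardiac actin Actc1 the ratio was 0.0414, 0.0673 and 0.0393 with Ang II and 0.177, 0.0592 and 0.0323 with Ang II + Tec (difference of mean log2 0.54, exact permutation p = 0.7). Acta1 is also the actin of skeletal muscle. In 6 skeletal muscle markers the summed FPKM was 7.66, 43.2 and 0.650 with Ang II and 11.9, 12.2 and 13.3 with Ang II + Tec, and single markers did not move together. Tnnt3, a fast skeletal troponin, made up most of the sum in Ang II replicates 1 and 2, with 6.91, 42.4 and 0.300 FPKM with Ang II and 1.41, 1.04 and 1.31 FPKM with Ang II + Tec (-1.77, standard error 1.09, limma adjusted p = 0.378). Mylpf, a fast skeletal myosin light chain, was called higher with Tec, at 0.580, 0.560 and 0.220 FPKM against 4.14, 3.44 and 4.55 FPKM (1.80, standard error 0.15, limma adjusted p = 0.0142). Atp2a1, the calcium pump of fast skeletal muscle, was called higher as well (2.90, standard error 0.11, limma adjusted p = 0.000251). Its FPKM were 0.10, 0.07 and 0.07 with Ang II and 6.30, 7.51 and 7.46 with Ang II + Tec. Atp2a1 thus met the filter for testing only through the Tec hearts. Mylpf reached 0.5 FPKM in Ang II replicates 1 and 2 but not in replicate 3, so it too needed the Tec hearts to meet the filter. Neither call is read as a result. Myh1, Myh2 and Actn3 were too low to test. The part of skeletal muscle in the Acta1 values was not tested.

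Beyond the 10 genes, the pathway of the natriuretic peptides was followed in 16 further genes, including convertases, peptidases, cGMP-dependent kinases, phosphodiesterases and targets. Of the 13 that were tested, 0 were called, 1 had an unadjusted p under 0.05 and was lower with Tec, and the median log2 fold change was -0.074. Of all tested genes, 16.5% were lower at that p, with a median of -0.17. The 1 gene of the list was Vasp, a substrate of the cGMP-dependent kinase, with 12.7, 14.4 and 7.95 FPKM with Ang II and 6.79, 9.29 and 6.43 FPKM with Ang II + Tec (-0.56, standard error 0.23, limma adjusted p = 0.260). The kinase Prkg1 was at -0.027 (standard error 0.12) and the cGMP phosphodiesterase Pde2a at 0.15 (standard error 0.14). Nppc, the gene of C-type natriuretic peptide, reached at most 0.12 FPKM in any heart. Ostn, whose product binds Npr3, also reached at most 0.12 FPKM, and Prkg2 at most 0.16 FPKM.

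Transcription factors and chromatin regulators known to act on these genes formed a list of 26, of which 25 were tested and 0 called. At an unadjusted p under 0.05, 4 were lower with Tec and 1 higher, and 5 were lower without overlap between groups. Set against the 25 tested, these counts were near the background of all tested genes, of which 16.5% were lower and 2.09% higher at that p and 18.9% lower without overlap, and the median of -0.18 was near theirs of -0.17. Thrb, a thyroid hormone receptor, had 1.74, 2.11 and 1.95 FPKM with Ang II and 0.810, 1.29 and 0.980 FPKM with Ang II + Tec (-0.54, standard error 0.13, unadjusted p = 0.0034, adjusted p = 0.194, limma). Thrb and Nkx2-5 were among the 5 without overlap. The cardiac homeobox gene Nkx2-5 had 32.7, 30.9 and 24.8 FPKM against 20.5, 24.0 and 22.4 FPKM (-0.38, standard error 0.14, limma adjusted p = 0.234).

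Gata4, whose factor binds the GATA motif, had 23.3, 20.9 and 15.9 FPKM with Ang II and 15.6, 16.7 and 14.0 FPKM with Ang II + Tec, with overlap (-0.35, standard error 0.16, limma adjusted p = 0.286). Mef2c and Rest, a repressor of fetal cardiac genes, were at -0.40 (standard error 0.15) and -0.27 (standard error 0.10), each with a limma adjusted p of 0.243. Klf15, a repressor of cardiac hypertrophy, was the 1 higher at an unadjusted p under 0.05, at 17.3, 14.9 and 25.4 FPKM with Ang II and 23.2, 30.1 and 31.4 FPKM with Ang II + Tec (0.55, standard error 0.21, limma adjusted p = 0.243). After the median of ratios Thrb was at -0.41, Nkx2-5 at -0.15, Gata4 at -0.12 and Rest at -0.13, while Klf15 was at 0.78.

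Among 15 other genes of the fetal program or of hypertrophy, 14 were tested and 0 called. At an unadjusted p under 0.05 (limma), 2 were lower and 2 higher with Tec, and the median log2 fold change was -0.49. Of all tested genes, 16.5% were lower and 2.09% higher at that p, with a median of -0.17. Nmrk2, a nicotinamide riboside kinase of stressed muscle, had 68.7, 69.1 and 2.36 FPKM with Ang II and 2.78, 2.49 and 1.90 FPKM with Ang II + Tec. It divided the hearts as the Myh7 to Myh6 ratio did, with Ang II replicate 3 inside the range of the Tec hearts (-2.91, standard error 1.09, limma adjusted p = 0.240). The intermediate filament gene Des was at -0.64 (standard error 0.24, limma adjusted p = 0.243). The stress cytokine Gdf15 had 0.530, 1.05 and 0.160 FPKM with Ang II and 3.66, 2.05 and 1.03 FPKM with Ang II + Tec (1.00, standard error 0.32, limma adjusted p = 0.228). Ang II replicate 3 was under 0.5 FPKM, so Gdf15 met the filter for testing only with the Tec hearts. It is counted among the 2 higher but is not read as a result.

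Ankrd1, a strain-responsive gene often read beside Nppb, had 733, 854 and 206 FPKM with Ang II and 602, 560 and 258 FPKM with Ang II + Tec. Replicate 3 of each group was lowest, as it was for Nppb, and the log2 fold change was -0.19 (standard error 0.57, limma adjusted p = 0.853). In 12 genes of the adult ventricle, which include Atp2a2, Ckm and Myl2, 0 were called, 0 had an unadjusted p under 0.05 and the median was 0.065. Ckm, the muscle creatine kinase, had 339.9, 259 and 559 FPKM with Ang II and 697, 443 and 577 FPKM with Ang II + Tec (0.62, standard error 0.30, limma adjusted p = 0.299).

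**Figure D5:**
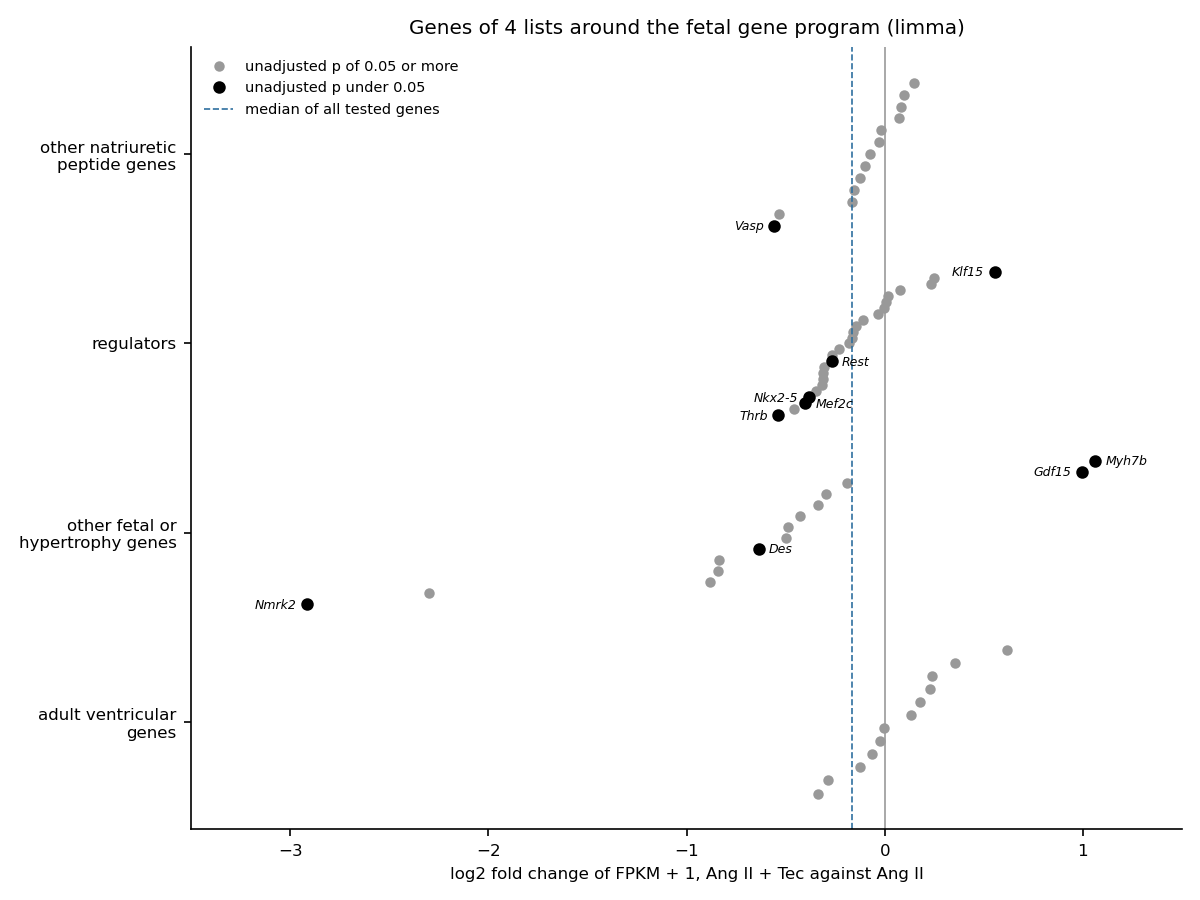
Log2 fold change of FPKM + 1, Ang II + Tec against Ang II, of every tested gene in 4 lists (limma); black points have an unadjusted p under 0.05 and are named, and points are spread vertically for legibility. The list medians were -0.074, -0.18, -0.49 and 0.065 from top to bottom, and 0 genes were called.

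Markers of other cells did not all follow the same hearts. The summed FPKM of 7 fibroblast genes was 705, 929 and 163 with Ang II and 136, 221 and 150.2 with Ang II + Tec, so Ang II replicates 1 and 2, which had the most Nppa, Nppb and Myh7, were also highest here. All 7 had a lower mean with Tec (median log2 fold change -1.65), 4 had an unadjusted p under 0.05 and 0 were called (limma). For 6 leukocyte markers the sum was 193, 329 and 153 with Ang II and 122, 112 and 123 with Ang II + Tec, without overlap, and the 5 tested were lower at an unadjusted p under 0.05 with 0 called. Of all tested genes, 80.0% were lower with Tec, 16.5% were lower at that p and 18.9% were lower without overlap. Endothelial markers were level, at 68.9 to 79.5 FPKM for 6 genes in all hearts, with 1 of 6 lower at an unadjusted p under 0.05 and a median of -0.12. Smooth muscle markers (4 genes) summed to 134, 316 and 92.1 FPKM with Ang II and 49.9, 231 and 77.9 with Ang II + Tec, and 0 had an unadjusted p under 0.05 (limma). The part of any of these cells in the values of the 10 genes was not tested.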

How the data were processed

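The authors trimmed the reads with Cutadapt and deposited the FPKM of each gene in each of the 6 libraries, to 2 decimals. The submitters' processing notes name Bowtie 0.12.2, HISAT2 2.0, StringTie 1.3.0 and the build mm8. However, 26777 of 30832 genes that the table shares with GENCODE release M21 (86.8%) had the GRCm38 coordinates of that release, including 8 of the 10 genes described, so GRCm38 was used. Poly(A) RNA was sequenced in pairs, on a NovaSeq instrument per the labels and a HiSeq in the study's methods. Groups and replicate numbers came from the sample titles. Nothing beyond the titles says how mice were assigned. The limma p-values set the difference between groups against the spread within groups of these 6 samples, with variances moderated over all tested genes. The permutation p-values set it against regroupings of the same 6 samples.

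The scale of log2(FPKM + 1) was used for a fit by group (limma 3.58.1, R 4.3.3, eBayes with a trend, no covariate), adjusted over the 13089 genes tested. Single ratios had two-sided exact permutation tests. The fit was tested on simulated data. The genes, lists, tests and alternatives were chosen with earlier results of these data known. The genes named are the 10 genes, the fixed lists and the 3 nearest profiles of Nppa, Nppb and Myh7. Those of Myh7 were Rhox5, Slc41a3 and Scx, at 0.23, 0.24 and 0.25. Sequences came from RefSeq (GRCm38.p6). Alternatives changed the pseudocount, filter, scaling, variance model, weights and libraries. The table's other columns, which hold the authors' annotation, were not used for values.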

Additional observations from a re-analysis of the deposited data

How the results depend on the processing

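Of 160 log2 fold changes of the 10 genes under 16 alternatives, 142 kept their direction and their side of the threshold, 17 changed sign and 1 passed it. With all genes, 21 were called. The count was 3 with no filter on low FPKM and 522 with library weights, whose estimate stopped before it converged, and without 1 library it ran from 2 to 557. Among the 10 genes, 0 to 1 were called without 1 library, the 1 being Myh7. Npr1 turned positive at 0.17 (median of ratios), 0.19 (quantile normalization), 0.0054 (scaled outside the mitochondrial genome) and ran from -0.24 to 0.11 without 1 library. Npr2 did so at 0.20, 0.20 and 0.018 in the same settings and ran from -0.13 to 0.052 without 1 library. With library weights Npr3 was at -0.20 and Acta1 at -0.83, and without 1 library Acta1 ran from -0.54 to 0.86, Acta1 over Actc1 from -0.13 to 1.10 and Nppb over Furin from -1.08 to 0.46.

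Hearts with the same number deviated together for replicates 2 and 3 (correlation of deviations 0.43 and 0.38) but not for replicate 1 (-0.039). Between unlike numbers the correlation ran from -0.44 to 0.23. The sources do not say that equal numbers mark pairs, so the main fit had no block. With the replicate block 22 genes were called and 3308 against 2439 had an unadjusted p under 0.05. Among the 10 genes it called 0, Nppa, Nppb, Furin and Myh7 were lower and Npr3 higher at that unadjusted level (limma), and Myh6 was not. With the block the standard error of Nppa was 0.29 and that of Nppb 0.23 (limma adjusted p = 0.103 and 0.125). In the paired sign-flip test the Myh7 to Myh6 ratio differed by -1.10 (exact p = 0.25). Depth per library is unknown from FPKM.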
